A study of Mus musculus with 15 samples.

Results

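The cells described here are *Hand1*-selected cells of the gastrulating mouse embryo, a selection meant to hold the lateral plate and extra-embryonic mesoderm. Whole embryos were dissociated and profiled by droplet single-cell RNA sequencing, 1 embryo per library, with 12 controls and 3 *Mesp1* KO embryos from early (E6.0 to E6.5), middle (E7.0, with a late E6.5 and an early E7.5 control) and late (late E7.5 and E7.75) gastrulation. A cell with less than 10% mitochondrial unique molecular identifiers (UMIs), fewer than 50000 UMIs and 200 to 7000 genes was retained. It was a member if it held at least 1 UMI of *Hand1* and of at least 2 of the 5 genes *Foxf1*, *Msx2*, *Bmp4*, *Pmp22* and *Tagln*. It also had to hold no UMI of *Tnnt2*, *Tbx4*, *Hbb-bh1*, *Elf5* or *Ttr*. The excluding genes were taken as marks of cardiomyocytes, allantois, blood, extra-embryonic ectoderm and visceral endoderm. These rules were met by 7368 of 93701 retained cells (7.86%). The members were chosen by the UMIs of these 11 genes, so the levels of those genes in the members are given as a description and carry no test.

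Control embryos carried at least 1 wild-type *Mesp1* allele (*Mesp1*Cre/+ or *Mesp1*+/+) and KO embryos were *Mesp1*Cre/Cre, in which a Cre knock-in that retains its PGK-Neo cassette disrupts both alleles. Cre from the *Mesp1* locus switches on the Rosa26R-Ai14 reporter in cells that have transcribed *Mesp1* and in their descendants, and all embryos carry a nuclear eGFP transgene at Hipp11 driven by the *Smarcd3*-F6 enhancer with an Hsp68 minimal promoter, on a C57BL/6J background. By the study's own record of its embryos, which the sample labels do not repeat, the early E7.5 control and the late E7.5 control of experiment 7 lack Ai14. Embryos were picked by reporter fluorescence, the controls without Ai14 excepted, were staged by morphology and were de-yolked at later stages. Each stage has 1 KO embryo. The late KO embryo is late E7.5 and belongs to experiment 5. The 4 late controls are late E7.5 of experiment 7, late E7.5 of experiment 4, E7.75 of experiment 5 and E7.75 of experiment 7, and their values are given below in this order.

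Lateral plate and extra-embryonic mesoderm leave the posterior primitive streak under high BMP signalling. BMP4 from extra-embryonic ectoderm, and later from the mesoderm itself, signals through SMAD1 and SMAD5 to targets such as *Msx1*, *Msx2* and the *Id* genes. HAND1, a basic helix-loop-helix factor, and FOXF1, a forkhead factor, are needed for yolk sac, allantois and lateral plate mesoderm. Extra-embryonic mesoderm lines the yolk sac, amnion and chorion and gains smooth muscle and keratin genes (*Acta2*, *Tagln*, *Krt8*, *Krt18*), whereas embryonic lateral plate next to the streak gains *Cdx* and *Hox* genes and retinoic acid synthesis. MESP1 is a transcription factor of nascent mesoderm that is transcribed briefly as cells leave the streak.

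*Mesp1* itself was at 0 UMIs in the members of all 3 KO embryos. In the members of the late controls it stood at 192, 12.6, 5.26 and 45.5 CPM (UMIs summed over the members of an embryo and scaled by their total and by the trimmed mean of M values, TMM). The middle controls, given below in order of age, stood at 358, 226 and 189, and the early controls between 312 and 775.3. The 3 embryos labelled KO thus lacked the transcript in these cells, and a count of 0 allows up to 0.801 CPM (3 UMIs) in the late one.

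The libraries differ in depth and in composition, and both differences fall across the groups. Libraries held 13058356 to 379177866 UMIs. Members of the late KO embryo and of the E7.75 control of experiment 5 had median totals of 4477.5 and 5480.5 UMIs, against 20409 to 42795 in the other 13 embryos, and ribosomal protein genes took 34.1% and 33.3% of their UMIs against 15.8% to 26.3%. In the 6 libraries of experiment 7, 73 genes in members were at least 2-fold above every one of the other 9 libraries (on CPM + 5), and 0 were as far below. *Foxf1*, used by the rule, was one of these, at 98.9 to 171 CPM in experiment 7 and 9.95 to 37.4 elsewhere. *Rac1* stood at 381 to 430 against 34.8 to 96.7 in members and at 370 to 407 against 38.0 to 88.0 in the remaining cells of the same embryos. All middle controls belong to experiment 7 and the middle KO embryo to experiment 8, so at the middle stage genotype and experiment cannot be told apart. The early KO embryo is E6.5 of experiment 8, and the only E6.5 early control is of experiment 7. The other early controls are E6.0 or late E6.0, so at the early stage genotype cannot be told apart from age and experiment. Barcode sequences are shared between libraries for 4809 sequences of retained cells, and 19 sequences occur among the members of more than 1 library.

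The share of members among retained cells was of similar size in early and middle embryos and spread widely in late ones. Early controls held 9.69% to 14.7% members (12.6% ± 2.27, SD, n = 5) and the early KO embryo 10.3%. Middle controls held 13.3% ± 4.02 (SD, n = 3) and the middle KO embryo 9.14%. The late controls held 16.7%, 2.27%, 2.92% and 7.98% (7.47% ± 6.66, SD, n = 4), and the late KO embryo held 8.39%, with an exact 95% interval of 7.91% to 8.88% that covers counting error only. The KO value lay inside the late control range. Over the 3 stages the mean of KO minus control was -1.83 percentage points (two-sided exact permutation within stages, p = 0.558, 120 arrangements), and without the embryos of experiment 7, which leaves no middle control and so 2 stages (15 arrangements), it was 2.02 (exact permutation p = 0.6), the opposite sign. It was -3.05 points when a cell was left out only at 3 UMIs of an excluding gene (exact permutation p = 0.442). When each cell was thinned to 2000 UMIs before the rule was applied, the late shares were between 1.96% and 6.61% in controls and 4.58% in the late KO embryo. A lower share can mean fewer such cells, less of the required transcripts per cell or more cells left out by the excluding genes. The first and second of these cannot be told apart here. In the late E7.5 control of experiment 4, 3291 of 22277 retained cells met the positive part of the rule and 505 were members.

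**Figure D1:**
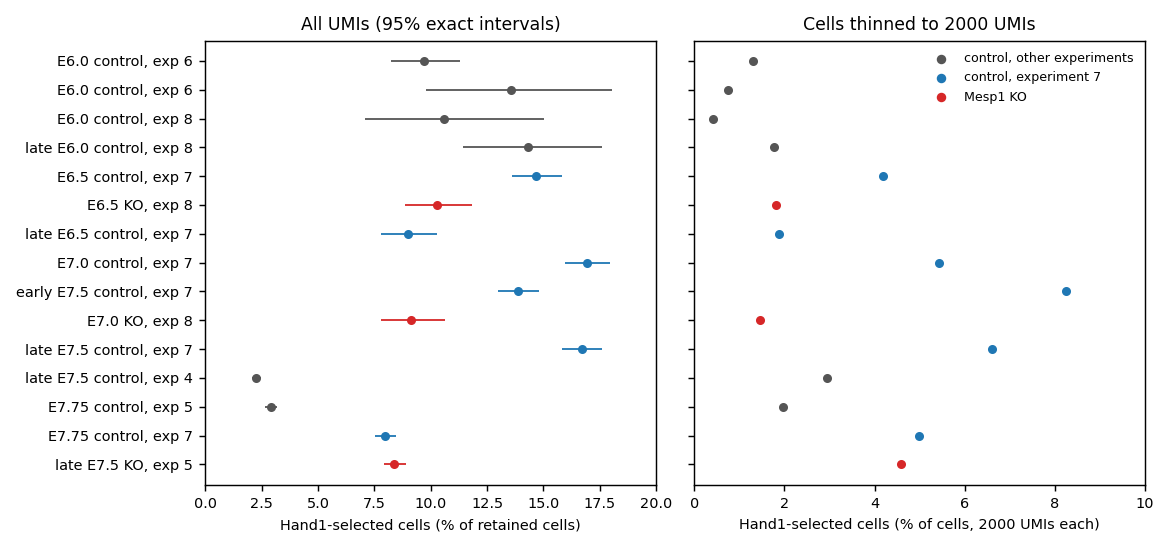
Share of *Hand1*-selected cells among retained cells (x axis, %) in each embryo (rows), with all UMIs and exact 95% intervals on the left and with cells thinned to 2000 UMIs on the right. The late KO embryo at 8.39% sits inside the late control range of 2.27% to 16.7%.

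The excluding genes shaped the membership strongly and unequally. Of 14930 cells that met the positive part of the rule, 7562 (50.6%) were left out for a UMI of an excluding gene, most often *Ttr* (2727 cells), *Tnnt2* (2665) and *Hbb-bh1* (2527), and 2648 of them by a single UMI. In late controls the part left out was 29.2%, 84.7%, 42.0% and 65.4%, and in the late KO embryo 35.7%. Just inside the rule, 2565 members (34.8%) held exactly 2 of the 5 optional genes, and just outside it 2728 cells held exactly 1. The median member held 5 *Hand1* UMIs in late controls and 3 in the late KO embryo.

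The required genes themselves describe what was selected. *Hand1* stood at 507, 445, 701 and 412 CPM in late control members and at 1044 in late KO members. *Msx2*, a BMP-responsive homeobox gene, stood at 142, 141, 157 and 145 CPM and at 250.0 in the KO embryo, and *Bmp4*, the ligand, at 106, 91.5, 171 and 73.4 CPM and at 198. For all 3 genes the KO embryo lay above the 4 controls in CPM. At 2000 UMIs per cell *Msx2* was seen in 33.4% of late KO members and in 23.3% to 27.6% of late control ones, but *Bmp4* in 25.9% and 14.4% to 26.4%, inside the control range. These members were chosen on all their UMIs before the thinning. Selection at a low total can itself raise the levels and the detection of rule genes, and how far it does so was not tested. *Pmp22*, a membrane protein of smooth muscle and glia, stood at 259, 418, 946 and 323 CPM in controls and 599 in the KO embryo, and *Tagln*, an actin-binding protein of smooth muscle, at 56.1, 141, 404 and 76.7 and at 324. Both KO values lay inside the control range, whose top was the E7.75 control of experiment 5 each time. *Foxf1* split the controls by experiment, at 158 and 150.0 CPM in experiment 7 and 26.5 and 30.5 in experiments 4 and 5, with 37.4 in the KO embryo.

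Genes that the rule did not use show that the name of the selection holds only in part. In late members, the 10 genes furthest above the other cells of the same embryo in every late embryo were *Anxa2*, *Hoxb6*, *Dlk1*, *Msx1*, *Slc38a4*, *Dok4*, *Wnt6*, *Spin2*, *Vim* and *P4ha2*. Their lowest log2 difference over the 5 late embryos (on CPM + 5, without TMM) was 1.38 for *Anxa2*, 1.21 for *Hoxb6*, a posterior Hox gene, 1.01 for *Msx1*, a homeobox target of BMP, and 0.94 for *Vim*, the intermediate filament of mesenchyme, down to 0.88 for *P4ha2*. *Wnt6*, at 0.97, is also on the list of surface ectoderm markers. Early members shared part of this profile. Of the 10 genes, *Msx1*, *Slc38a4*, *Dok4*, *Spin2* and *Vim* were above the other cells in every early embryo. The smallest of their log2 differences was 0.874. *Anxa2*, *Dlk1*, *Wnt6* and *P4ha2* were below the other cells in at least 1 early embryo, and the lowest difference of *Hoxb6* was 0. *Tdgf1* and *Acta2* set early control members apart from late ones. *Tdgf1*, the NODAL co-receptor of epiblast and streak, stood at 186 to 1473 CPM (median 1179.9) in early control members. *Pou5f1*, the pluripotency factor, stood there at 501 to 893 (median 591). *Acta2*, a smooth muscle actin of extra-embryonic mesoderm, stood at only 0.619 to 7.16 CPM there. *Pou5f1* separated the stages less. At 2000 UMIs per cell it was seen in 52.3% of members of the E6.5 control and in 46.5% of those of the late E7.5 control of experiment 7. An Ai14 UMI was found in 68.9% to 82.1% of early control members and in 11.2% to 15.6% of the other cells of these embryos. The early members are called *Hand1*-selected cells by choice, and the mesoderm name is used for the late ones at most. Whether the early members are mesoderm was not tested.

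Between middle and late controls no gene passed the test in the *Hand1*-selected cells, and the values of the gene lists are given as a description. All 3 middle controls belong to experiment 7. With edgeR's quasi-likelihood test on UMIs summed per embryo, 0 of 13234 genes (0%) had an adjusted p under 0.05, while 635 genes (4.80%) were higher and 317 (2.40%) lower in late controls at an unadjusted p under 0.05, and DESeq2 called 2 genes (0.0151% of 13222). Late and middle controls did not overlap, higher in late, for 548 genes (4.14%), and lower in late for 613 (4.63%). Without TMM these shares were 2.37% and 6.42%. The median fitted log2 change over all genes tested was -0.01.

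Streak and mesendoderm genes gave lower fitted values in late controls for 12 of 13 genes, with a median log2 change of -1.42. Of all genes tested 6775 of 13234 were fitted lower. Only 2 of the 13 were lower in late controls without overlap, where 4.63% of all genes were. *Eomes*, a T-box factor of nascent mesoderm and endoderm, stood at 144, 18.4 and 2.49 CPM in the middle controls by age and at 2.89, 0.655, 0.526 and 0.789 in the late ones. *Tdgf1* stood at 428, 65.2 and 0.944 CPM and then at 2.36, 0.0936, 0 and 0.118. *Pou5f1* stood at 594, 577 and 391 CPM in middle controls and at 425, 95.01, 23.6 and 236 in late ones. All 3 genes were lower the older the middle control, and in each of them the early E7.5 control overlapped with the late E7.5 control of experiment 7. The genes that DESeq2 called were *Eomes* and *Tdgf1*, both lower. Pluripotency genes as a group were fitted lower for 5 of 6 genes, with a median of -0.90, and 0 of the 6 were lower without overlap.

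Posterior genes were fitted higher in late controls for 9 of 9 genes (median log2 change 1.10), retinoic acid genes for 7 of 8 (median 1.52) and extra-embryonic mesoderm and amnion genes for 15 of 18 (median 0.79). In these lists 0, 1 and 1 genes were higher in late controls without overlap, where 4.14% of all genes were. *Acta2* stood at 1.98, 6.65 and 118 CPM in middle controls and at 36.9, 383, 603 and 109 in late ones. *Postn*, a matrix protein of mesenchyme, stood at 0, 0.0711 and 1.64 CPM and then at 0.204, 16.8, 26.8 and 0.986. In both genes the controls of experiments 4 and 5 were above both late controls of experiment 7, and within experiment 7 the early E7.5 control was above both late ones. *Crabp1*, a retinoic acid-binding protein, stood at 79.9, 145 and 351 CPM in middle controls and at 332, 581, 1150 and 633 in late ones (log2 change 1.81, SE 0.54, adjusted p = 0.636 by edgeR), with the early E7.5 control above the lowest late one.

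The genes nearest to the threshold for age were mixed in kind. Among those higher in late controls without overlap were *Ptn*, a heparin-binding growth factor (log2 change 2.48, SE 0.57), *Nnat*, an imprinted membrane proteolipid (1.32, SE 0.42), *Mfap2*, a microfibril protein (0.85, SE 0.27), and *Smarca2*, an ATPase of BAF complexes (0.88, SE 0.27). Among those lower were *Asb4*, a subunit of a ubiquitin ligase of embryonic vasculature (-1.40, SE 0.33), *Kdr*, the VEGF receptor of haemato-endothelial mesoderm (-1.56, SE 0.44), and *Tgfb1* (-0.99, SE 0.29). Their adjusted p lay between 0.617 and 0.636. The other named genes were *Ppp1r1a*, *Greb1l*, *Fndc3a*, *Cmtm8*, *Gprc5c* and *Emp2* on the higher side and *Agtrap*, *Gfpt2*, *St6galnac4*, *Lhfp*, *Sh3bp1*, *Ppic* and *Ypel3* on the lower side, and none of them passed.

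Detection at a fixed depth takes out the difference in totals from the counting of a gene, but not from the choice of members. These members were chosen on all their UMIs before the thinning, and how far that shifts the shares was not tested. For both *Tdgf1* and *Acta2* the range of middle controls overlapped those of the early and the late ones. At 2000 UMIs per cell, *Tdgf1* was seen in 26.8% to 92.3% of early control members, in 41.4%, 10.1% and 0.248% of middle ones and in 0% to 0.622% of late ones. *Acta2* was seen in 0% to 1.88% of early members, in 0%, 1.59% and 13.6% of middle members and in 4.88%, 24.8%, 39.3% and 11.3% of late control members. The share with *Acta2* was higher in the early E7.5 control than in both late controls of experiment 7, and it differed among the late controls. *Pou5f1* ran the other way among late controls, at 46.5%, 15.2%, 3.53% and 33.1%.

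**Figure D2:**
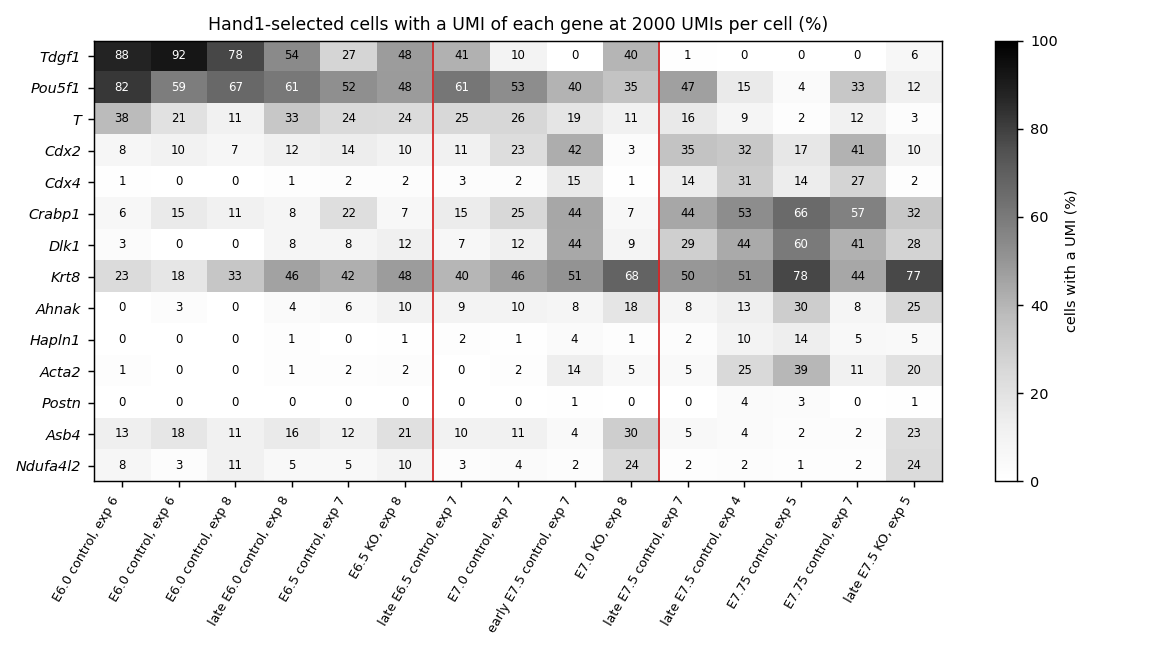
Percentage of *Hand1*-selected cells with at least 1 UMI of each gene (rows) after thinning each cell to 2000 UMIs, by embryo (columns, ordered by stage, with red lines between early, middle and late); grey level and the printed rounded value give the percentage. *Tdgf1* is seen in 26.8% to 92.3% of early control members and in at most 0.622% of late control ones, and *Ndufa4l2* in 23.5% of late KO members.

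Within late embryos, *Acta2* was seen more often in members with *Krt8* than in those without, and less often in members with *Pou5f1*. Members with a *Krt8* UMI at 2000 UMIs per cell held *Acta2* in 8.24%, 41.8%, 46.5% and 19.5% of cells in the 4 late controls, against 1.58%, 7.05%, 13.8% and 4.74% of members without one. In the late KO embryo these shares were 24.1% and 7.30%. Members with a *Pou5f1* UMI held *Acta2* in 1.91%, 9.33%, 20% and 6.82% of cells in controls, against 7.48%, 27.6%, 40% and 13.5% of those without, and in 8.66% against 22.0% in the KO embryo. All 5 embryos had the same direction in both splits, and in the E7.75 control of experiment 5 only 15 cells held *Pou5f1*. Every cell of an embryo shares its library, so these are descriptions.

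Cells that the excluding genes removed lay on both sides of the members. Those left out by *Tbx4* alone (48, 262, 31 and 349 cells in late controls, 44 in the KO embryo) held *Hoxa10*, a distal *Hox* gene of the allantois, at 66.5 to 124 CPM without TMM, against 4.51 to 10.5 in members. Those left out by *Tnnt2* alone (168, 264, 237 and 419 cells, and 240 in the KO embryo) held *Myl7*, an atrial myosin light chain, at 215, 694, 996 and 568 CPM in controls and 71.3 in the KO embryo, against 20.1 to 87.7 in members. The same cells held *Acta2* at 280.5 to 1610.1 CPM in controls and 585 in the KO embryo. In each late embryo *Acta2* was thus higher in the cells left out by *Tnnt2* than in members, which held 38.8 to 455 CPM in controls and 234 in the KO embryo. *Krt8*, *Ahnak*, *Vim* and the rule genes *Hand1* and *Tagln* were also higher in those cells in every late embryo, while *Cdx2* and *Cdx4* were lower. *Krt8* stood at 1118 to 1351 CPM in these cells of controls and at 1492 in those of the KO embryo. Members held 449 to 1059 and 1033. *Myl7* was above the members in these cells of every late control, while in the KO embryo it was below them. Leaving out cells with *Tnnt2* thus removed cells high in extra-embryonic mesoderm genes. Whether they are cardiomyocytes was not tested.

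Between the late KO embryo and the late controls, *Ndufa4l2*, *Asb4* and *Gmfg* rose and no gene fell by the test with all 4 controls, and the 3 calls were lost when the experiment was a covariate. With edgeR's quasi-likelihood test in a fit of all embryos, 3 of 13234 genes (0.0227%) were higher and 0 (0%) lower at an adjusted p under 0.05, and at an unadjusted p under 0.05 it was 675 (5.10%) higher and 671 (5.07%) lower. DESeq2 called 66 genes (0.509% of 12965), 48 higher and 18 lower. The count depended on single controls, at 462 (382 higher and 80 lower) without the E7.75 control of experiment 5, 9 without the late E7.5 control of experiment 7 and 1 without either of the others. The KO embryo was above all 4 late controls for 2927 genes (22.1%) and below all 4 for 3057 (23.1%). Without TMM these shares were 10.1% and 37.7%, so the direction counts below use TMM values, and 22.1% and 23.1% are the shares against which each of them is to be read. The median fitted log2 change over all genes tested was -0.08, or -0.06 with genes at 0 in the KO embryo set at the bound from 3 UMIs. There is 1 late KO embryo, which the fit assumes to vary as the controls do. With the experiment as a covariate it is set against the E7.75 control of experiment 5, the only late control of that experiment, which is older.

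*Ndufa4l2*, a hypoxia-induced protein related to a subunit of cytochrome oxidase, stood at 7.99, 10.8, 6.83 and 6.98 CPM in late control members and at 182 in late KO members (log2 change 4.46, SE 0.34, adjusted p = 1.04e-04 by edgeR). *Asb4* stood at 20.1, 20.5, 21.5 and 12.1 CPM and at 181 in the KO embryo (log2 change 3.31, SE 0.41, adjusted p = 0.0160). *Gmfg*, a regulator of branched actin known from blood and endothelial cells, stood at 12.8, 8.52, 11.04 and 9.46 CPM and at 37.1 (log2 change 1.83, SE 0.26, adjusted p = 0.0345). In all 3 genes the KO value was above the highest control, and *Asb4* was lower in the E7.75 control of experiment 7 than in the others. With the experiment as a covariate none of the 3 passed (adjusted p = 0.0998, 0.486 and 0.446 by edgeR), nor did any in a fit of late embryos alone (0.0596, 0.420 and 0.489), while their log2 changes were 4.73, 3.07 and 1.75 and then 4.49, 3.32 and 1.85. In thinned cells *Asb4* and *Gmfg* did not pass either, with log2 changes of 2.13 and 2.32 (adjusted p = 0.300 and 0.228 by edgeR), while *Ndufa4l2* did, with 4.16 (adjusted p = 1.01e-04). The rise of *Ndufa4l2* in late KO cells was known when the members were chosen, and *Asb4* is on the list of genes that the study names on these libraries, so neither is independent evidence.

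*Ndufa4l2* and *Asb4* were high in CPM in the younger KO embryos as well. *Ndufa4l2* stood at 88.3 CPM in middle KO members against 18.4, 17.6 and 10.8 in middle controls, and at 65.6 in early KO members against 20.4 to 50.3 in early controls. *Asb4* stood at 189 CPM in the middle KO embryo against 61.2, 62.3 and 22.0, and at 134 in the early one against 46.0 to 79.9. Each of these KO values lay above all controls of its stage. The early KO embryo is E6.5, and all early controls but that of experiment 7 are younger. *Gmfg* was inside the early controls in the early KO embryo, at 19.2 CPM against 11.6 to 19.3, and above the middle controls in the middle one, at 15.6 against 11.8 to 13.4. In controls of the 3 stages *Ndufa4l2* had its lowest values in the late ones, and in KO embryos its highest. None of the 3 genes was particular to the members, since in the remaining cells of the late embryos *Ndufa4l2* stood at 72.5 CPM in the KO embryo against 5.26 to 14.5 in controls, *Asb4* at 83.1 against 12.6 to 16.1 and *Gmfg* at 45.2 against 13.4 to 19.4. At 2000 UMIs per cell *Ndufa4l2* was seen in 23.5% of late KO members and in 1.18% to 2.03% of late control ones, and in the KO embryo in 20% of *Acta2*-positive and 24.4% of *Acta2*-negative members.

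**Figure D3:**
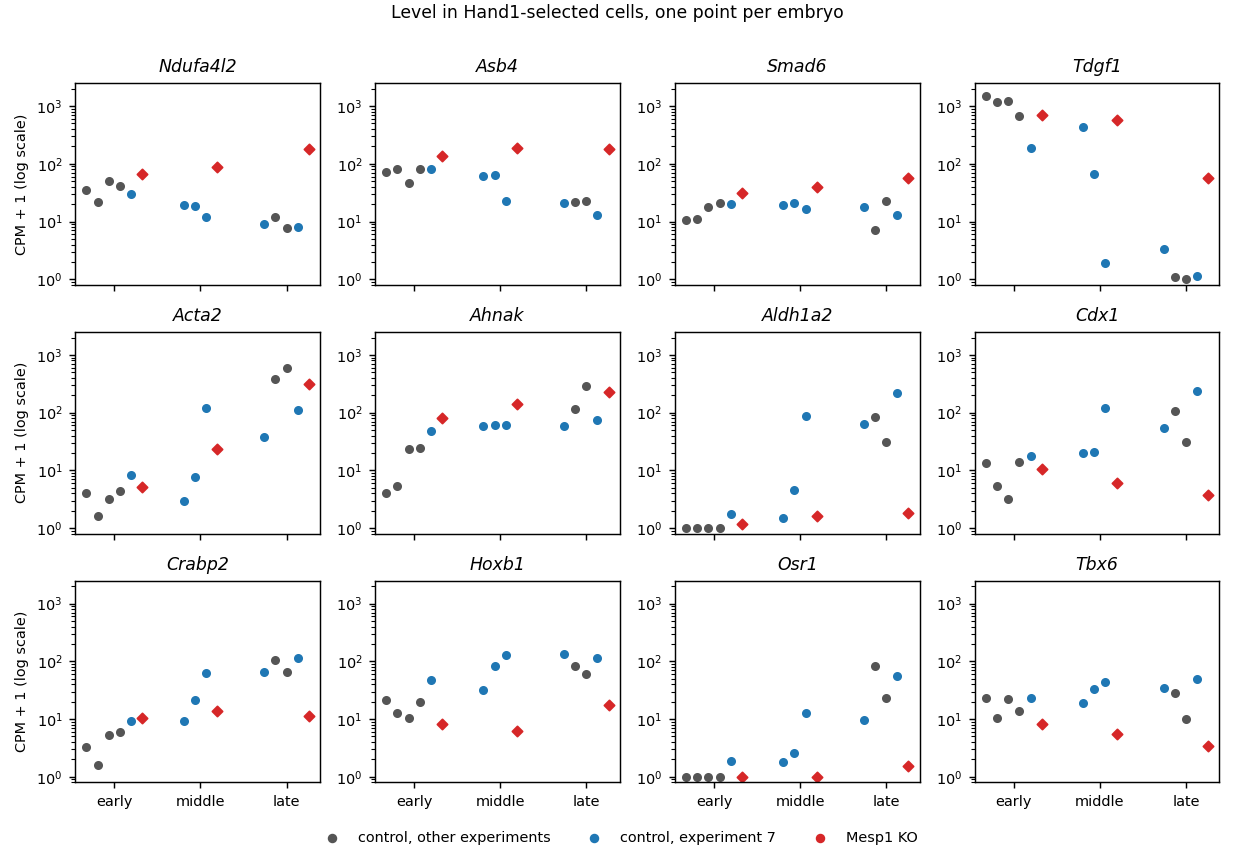
Levels of 12 genes in *Hand1*-selected cells (y axis, CPM + 1 on a log scale), 1 point per embryo, grouped by stage on the x axis; grey, controls of other experiments, blue, controls of experiment 7, red diamonds, *Mesp1* KO. *Ndufa4l2* and *Asb4* lie above the controls of their stage in each KO embryo (182 and 181 CPM in the late one), and *Cdx1*, *Aldh1a2*, *Hoxb1* and *Tbx6* lie below the late controls in the late one.

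*Ndufa4l2* belongs to the list of hypoxia and glycolysis genes, and none of the other 7 genes of it passed. The KO embryo was above all 4 controls for 5 of these 7 (*Pgk1*, *Ldha*, *Bnip3*, *Hk2* and *Egln3*) and below for 0, where 22.1% and 23.1% of all genes were. The median log2 change of the 8 genes, *Ndufa4l2* included, was 1.02, and 0.86 to 1.33 over the alternatives tried. *Pgk1*, phosphoglycerate kinase, stood at 478, 653, 412 and 519 CPM in controls and 1010.0 in the KO embryo (adjusted p = 0.315 by edgeR). *Egln3*, a prolyl hydroxylase induced by hypoxia, stood at 25.6, 19.3, 15.2 and 19.6 CPM and 56.6 (adjusted p = 0.220). Both KO values were above all controls. *Hk2* was only just above the highest control. *Slc2a1*, the glucose transporter, was inside the control range, at 686, 1073, 1819 and 910.1 CPM in controls and 1583 in the KO embryo. In the remaining cells of the late embryos *Pgk1* stood at 997 CPM in the KO embryo against 470 to 739 in controls, and *Ldha* at 4689 against 3384 to 3756. *Bnip3* and *Egln3* were above the controls there too, while *Hk2* and *Slc2a1* were inside their range. Against the E7.75 control of experiment 5 alone, *Ndufa4l2* and 4 of the other 7 genes were at least 2-fold higher in the KO embryo (on CPM + 5), against 1.14% of all genes.

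Further genes named by the smallest unadjusted p on the higher side were *Pfkp*, a phosphofructokinase (log2 change 1.86, SE 0.29), *Ptpn18*, a tyrosine phosphatase (3.19, SE 0.52), *Fbln2*, a matrix glycoprotein (2.63, SE 0.46), *Rasgrp2*, an activator of RAP1 (2.31, SE 0.41), *Cxcr4*, the receptor of CXCL12 (2.19, SE 0.39), *Fam162a*, a mitochondrial protein induced by hypoxia (1.79, SE 0.32), and *Prdm6*, a regulator of smooth muscle (1.57, SE 0.29). Their adjusted p was 0.0736 to 0.114, so they did not pass. On the lower side they were *Rnf213*, a large ubiquitin ligase (-3.07, SE 0.54), *Bcat1*, an aminotransferase of branched-chain amino acids (-1.46, SE 0.34), *Ror2*, a receptor for WNT5A (-2.04, SE 0.50), *F11r*, a junctional adhesion molecule (-1.68, SE 0.41), and *Tbx6*, described below. *Pfn2*, *Mettl10*, *Gsta4*, *Tmem41a* and *Erp44* completed that side, with log2 changes of -0.80 to -1.29. Their adjusted p was 0.114 to 0.258.

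Posterior genes had low values in late KO members as a list. The KO embryo was below all 4 late controls for 7 of 9 genes and above for 0, with a median log2 change of -2.15, and 0 of the 9 passed the test. Against the controls of experiments 4 and 5 it was below for 9 of 9 genes, where 30.3% of all genes were, and it was at least 2-fold below the control of experiment 5 for 7 of 9, where 1.51% were. Over the alternatives tried its median was -2.31 to -1.35. These low values were not particular to the members. In the remaining cells of the late embryos *Cdx1* stood at 2.97 CPM in the KO embryo against 74.8 to 234 in controls, *Cdx2* at 27.6 against 99.4 to 161 and *Hoxb1* at 7.02 against 40.2 to 90.5.

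*Cdx1*, a caudal homeobox factor, stood at 53.8, 106, 29.4 and 236 CPM in late controls and at 2.67 in the KO embryo (log2 change -5.33, SE 1.70, adjusted p = 0.345 by edgeR). *Cdx2* stood at 235, 192, 127 and 269 CPM and at 79.6 in the KO embryo. *Hoxb1*, an anterior *Hox* gene induced by retinoic acid in the streak, stood at 133, 82.2, 58.9 and 111 CPM and at 16.3. The KO embryo lay below every late control in all 3. *Cdx4*, kept on the allantois list, stood at 78.6, 231, 119 and 189 CPM and at 16.8. *Hoxa3* stood at 3.83, 17.97, 7.36 and 12.2 CPM and at 0.267, where 3 UMIs in the KO embryo are worth 0.801 CPM. *Hoxc8*, by contrast, was inside the control range at 16.03 CPM, against 3.67, 46.7, 83.6 and 11.2 in controls. The summed level of the 9 posterior genes was 166 to 692 CPM in middle controls and 470.3 to 838 in late controls, which overlap, and 182 in the late KO embryo. At 2000 UMIs per cell *Cdx2* was seen in 34.7%, 32.1%, 16.9% and 40.8% of late control members and in 9.78% of KO members.

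Retinoic acid genes were below all 4 late controls for 6 of 8 genes, where 23.1% of all genes were, and above for 1, with a median log2 change of -1.75, and 0 passed. *Aldh1a2*, the main enzyme of retinoic acid synthesis in the embryo, stood at 63.6, 82.7, 30.5 and 221 CPM in late controls and at 0.801 in the KO embryo, which is 3 UMIs (log2 change -6.95, SE 2.77, adjusted p = 0.452 by edgeR). *Crabp2*, a retinoic acid-binding protein, stood at 63.6, 104, 65.7 and 113 CPM and at 10.4 in the KO embryo. Both KO values lay below every late control. In the remaining cells *Aldh1a2* was low as well, at 0.424 CPM in the KO embryo against 56.7 to 162 in controls. *Crabp1* stood at 332, 581, 1150 and 633 CPM and at 300.2, just under the lowest control. *Cyp26a1*, which degrades retinoic acid, was the exception on the higher side, at 30.5 CPM against 8.03 to 12.9. Like the posterior genes, most of this list was fitted higher in late than in middle controls. *Aldh1a2* stood at 0.496, 3.48 and 84.6 CPM in middle controls, so the late KO value was between those of the late E6.5 and the E7.0 control. Whether a difference in developmental progress within the late stage accounts for these values was not tested.

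Of 14 lateral plate transcription factors 0 passed. The KO embryo was above all 4 late controls for 4 of them, a share near the 22.1% of all genes, and below for 6, where 23.1% of all genes were. The median log2 change was -0.55, and -0.98 to -0.26 over the alternatives tried. *Gata4*, *Gata6*, *Tbx3* and *Tbx20*, factors of heart and extra-embryonic mesoderm, were the 4 above, at 42.2, 65.4, 56.6 and 49.4 CPM against control means of 19.1, 43.3, 26.6 and 23.6. For *Gata6* the highest control was close to the KO value. In the remaining cells of the late embryos *Gata4* stood at 46.8 CPM in the KO embryo against 19.4 to 24.5 in controls. *Gata6* and *Tbx3* were above the controls there too, and *Tbx20* was inside their range. *Osr1*, a zinc-finger factor of lateral plate and intermediate mesoderm, stood at 8.72, 81.4, 22.1 and 54.1 CPM in controls and at 0.534 in the KO embryo, under the 0.801 CPM of 3 UMIs. *Meis1*, a cofactor of *Hox* proteins, stood at 12.5, 19.8, 19.97 and 13.9 CPM and at 1.60 (log2 change -3.33, SE 1.09, adjusted p = 0.359 by edgeR). *Prrx1*, *Prrx2*, *Isl1* and *Meis2* were the others below. *Prrx2* is among the genes that split by experiment, at 6.78 to 42.0 CPM in experiment 7 and 0.767 to 3.68 elsewhere. *Hand2*, *Gata5* and *Foxf2* were among those inside the control range.

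Extra-embryonic mesoderm and amnion genes were above all 4 late controls for 7 of 18 genes and below for 1, with a median log2 change of 0.65 and 0 calls. The median of this list was -0.02 with the experiment as a covariate and 0.16 in thinned cells. It was 0.34 to 0.85 when late controls were left out or only some were compared. Against the control of experiment 5 alone 1 of 18 genes was at least 2-fold higher and 4 at least 2-fold lower, where 1.14% and 1.51% of all genes were. *Acta2* stood at 36.9, 383, 603 and 109 CPM in late controls and at 318 in the KO embryo, and *Ahnak*, a large scaffold protein of the plasma membrane, at 57.0, 113, 289 and 74.9 and at 225. *Krt8*, a simple epithelial keratin, stood at 427, 599, 1406 and 526 CPM and at 1407. In these genes the KO embryo and the E7.75 control of experiment 5 were close or the control was higher. *Dlk1*, an imprinted Notch ligand, stood at 208, 381, 792 and 330 CPM and at 278, inside the range. *S100a10*, the annexin partner, stood at 377, 284, 1041 and 305 CPM and at 1920.5, and *Amot*, a junctional regulator of YAP, at 88.8, 77.6, 97.2 and 83.2 and at 202. *Ifitm1* was the 1 gene below, at 736, 712, 1108 and 863 CPM and at 488 in the KO embryo. In the remaining cells *S100a10* stood at 856 CPM in the KO embryo against 179 to 264 in controls, and *Amot* at 185 against 67.7 to 109. *Ifitm1* was inside the control range there.

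Extracellular matrix genes were above the controls for 5 of 16 genes, a share not far from the 22.1% of all genes, and below for 0. Their median log2 change was 0.43, which became -0.40 with the experiment as a covariate, -0.07 in thinned cells and -0.08 against experiments 4 and 5. The median was 0.18 to 1.01 without 1 late control and 1.02 with late E7.5 controls only. Against the control of experiment 5 alone 0 of 16 were at least 2-fold higher and 3 at least 2-fold lower. *Has2*, a hyaluronan synthase, stood at 7.18, 8.14, 18.9 and 6.47 CPM and at 38.2 in the KO embryo. *Col1a1* stood at 12.8, 34.7, 74.6 and 13.7 CPM and at 109. Both KO values were above all controls, and the nearest control was that of experiment 5. *Hapln1*, which links hyaluronan to proteoglycans, stood at 13.9, 60.002, 86.2 and 38.1 CPM and at 35.5, and *Col3a1* at 0.245, 8.61, 12.6 and 1.02 and at 3.47, each inside the range.

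BMP pathway genes, the rule gene *Bmp4* left aside, lay on both sides of the controls. The ligands *Bmp2* and *Bmp5* were above all controls at 56.1 and 19.8 CPM, against control means of 29.4 and 11.1, and *Bmp7* was inside the range at 17.9 against 16.9. The median log2 change of the 3 ligands was 0.89, which became -0.04 in thinned cells. Of 5 receptors, 2 were below the controls (*Bmpr1a* and *Acvr1*) and 0 above, and of the SMAD transducers *Smad4* was below at 25.4 CPM against 25.7 to 37.8. Of 8 targets 3 were above and 3 below, with a median log2 change of 0.14. *Smad6*, an inhibitory SMAD induced by BMP, stood at 17.0, 6.27, 22.1 and 11.99 CPM in controls and at 54.8 in the KO embryo (log2 change 1.99, SE 0.47, adjusted p = 0.220 by edgeR), while *Id1* stood at 291, 300.1, 229.6 and 333 and at 153, and *Id2* at 129, 187, 184 and 153 and at 76.4. So *Smad6* lay above and *Id1* and *Id2* below every late control. In the remaining cells *Smad6* stood at 20.4 CPM in the KO embryo against 5.62 to 11.2 in controls, and *Bmp2* at 47.9 against 12.6 to 21.2. *Id2* was below the controls there too, while *Id1* and *Bmp5* were inside their range. *Smad7* and *Bambi* were the other targets above, at 25.4 and 181 CPM against control means of 18.7 and 143, with *Smad7* only just above the highest control. *Id4* was the other below, at 2 UMIs in the KO embryo. The antagonist *Fst* stood at 106, 11.2, 8.41 and 81.2 CPM and at 6.94, and it split by experiment in the other cells as well. Hedgehog receptor and target genes were above for 3 of 7 (*Ptch1*, *Gli2* and *Hhip*) and below for 2.

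Markers of other cell types lay outside the control range as well, and their part in these differences was not tested. Paraxial mesoderm markers were below all 4 late controls for 7 of 8 genes and above for 0, with a median log2 change of -4.14, unchanged with *Hes7* at its bound. That median was -1.20 in thinned cells and -2.31 with the experiment as a covariate. Their summed level was 59.4 to 224 CPM in controls and 21.1 in the KO embryo. *Tbx6*, the T-box factor of presomitic mesoderm, stood at 34.1, 27.1, 8.93 and 48.8 CPM and at 2.40 (log2 change -3.67, SE 0.95, adjusted p = 0.258 by edgeR). *Dll1*, a Notch ligand of the same tissue, stood at 23.1, 14.1, 5.26 and 33.1 CPM and at 0.801, and *Hes7*, its oscillating target, at 15.2, 28.5, 7.36 and 48.1 and at 0. The KO embryo was below every late control in all 3. *Tbx6* was lower in KO embryos at younger stages too, at 4.49 CPM in the middle one against 17.7 to 42.7. Surface ectoderm markers were below for 5 of 5 genes, *Wnt6* among them, which was itself higher in members than in the other cells. The summed level of the 4 markers other than *Wnt6* was 27.3 to 41.4 CPM in controls and 8.55 in the KO embryo. Extra-embryonic ectoderm markers were below for 3 of 6, with 41.0 to 117 and 23.8, *Wnt7b* and *Rhox9* at 0.

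Streak and mesendoderm markers were above all 4 late controls for 6 of 13 genes and below for 1, with a median log2 change of 0.55 and a summed level of 90.9 to 381 CPM in controls and 291 in the KO embryo. Over the alternatives tried the median was 0.22 to 1.53, the highest with the experiment as a covariate, and against the control of experiment 5 alone 6 of 13 genes were at least 2-fold higher and 2 at least 2-fold lower, where 1.14% and 1.51% of all genes were. *Eomes* stood at 2.89, 0.655, 0.526 and 0.789 CPM in late controls and at 39.8 in the KO embryo (log2 change 4.77, SE 1.28, adjusted p = 0.288 by edgeR). *Tdgf1* stood at 2.36, 0.0936, 0 and 0.118 CPM and at 56.4 (log2 change 5.98, SE 1.73, adjusted p = 0.315). Both late KO values were above every late control, with *Eomes* above and *Tdgf1* below the E7.0 control, which held 18.4 and 65.2 CPM. *T* (Brachyury) was inside the control range, at 160.2, 48.6, 11.6 and 78.2 CPM and at 29.1 in the KO embryo, and *Pou5f1* at 425, 95.01, 23.6 and 236 and at 115. In the other cells of the late KO embryo *Eomes* and *Tdgf1* stood at 74.6 and 160 CPM, against 0.563 to 9.71 and 0.657 to 3.73 in controls.

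Endothelial and blood markers were above for 6 of 12 genes and below for 1, with a summed level of 66.7 to 116 CPM in controls and 168 in the KO embryo. The cardiac list was above for 4 of 10 and below for 2, the allantois list 1 and 1 of 4, visceral endoderm 2 and 0 of 7 and definitive endoderm 3 and 0 of 5. The median log2 change was 1.25 for definitive endoderm, 0.59 for visceral endoderm, -0.07 for pluripotency, 0.45 for endothelium and blood and -2.10 for extra-embryonic ectoderm (-1.51 with *Wnt7b* and *Rhox9* at their bound). With the experiment as a covariate these medians were 4.42, 2.32, 2.17, 1.93 and -0.22, and in thinned cells 2.23, -0.14, 0.94, 0.93 and -0.61. The E7.75 control of experiment 5 is the only late control that shares an experiment with the KO embryo, so the covariate medians rest on it. Its members held 0 UMIs of *Cer1*, *Foxa1*, *Cubn*, *Amn* and *Nanog*. Adhesion and mesenchymal transition genes were above for 1 of 11 and below for 4, and other ligands of mesoderm for 2 and 4 of 10, among them *Vegfa* at 8.40, 11.8, 38.4 and 9.70 CPM in controls and 49.1 in the KO embryo. Cell cycle genes were above for 2 of 9 and below for 1, and dissociation response genes for 1 and 4 of 8, pluripotency genes for 2 and 1 of 6. Of the 10 genes that the study names on these libraries for this mesoderm, 4 were above and 1 below and 1 passed (*Asb4*). *Rac1* and *Taf10*, also of that list, split the controls by experiment.

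**Figure D4:**
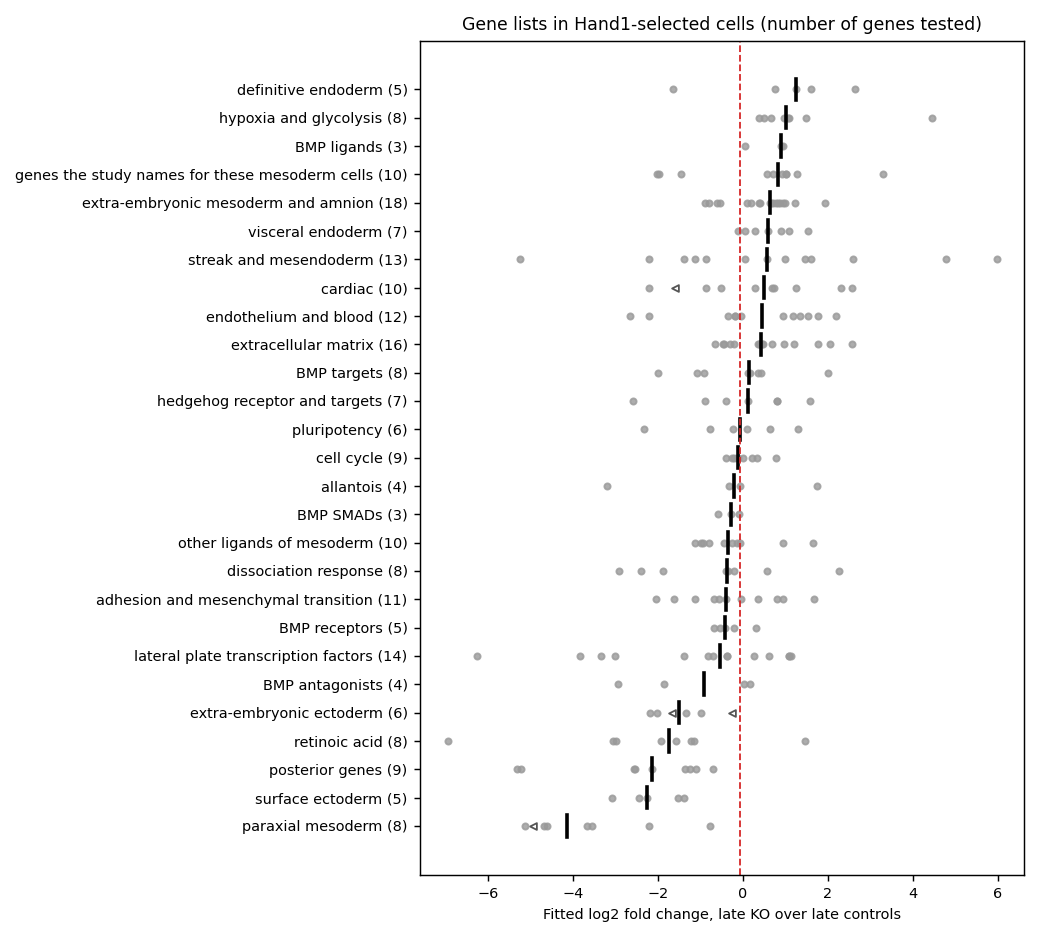
Fitted log2 fold change of late KO over late controls (x axis) for the genes of each list (rows, number tested in brackets); grey points, genes; white triangles, genes at 0 UMIs in the KO embryo at their bound from 3 UMIs; black bars, list medians with those genes at the bound; red dashed line, the median of all genes tested at -0.06. Paraxial mesoderm (-4.14), surface ectoderm (-2.26), posterior (-2.15) and retinoic acid (-1.75) lists lie lowest, and definitive endoderm (1.25) and hypoxia and glycolysis (1.02) highest. Extra-embryonic ectoderm is at -1.51 with 2 genes at the bound, and at -2.10 by the fit.

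The rule did not use the reporters. In the late KO embryo, at a lower depth, eGFP was seen in fewer members than in 3 of 4 late controls and Ai14 in fewer than in 2 of the 3 that carry it. An eGFP UMI was found in 26.5%, 17.6%, 6.45% and 20.1% of late control members and in 7.14% of late KO members (exact 95% interval 5.68% to 8.85%). The difference of -10.5 percentage points was within the spread of the controls (exact permutation p = 0.6, with 0.2 the smallest p that 5 embryos allow). In members chosen after thinning to 2000 UMIs the shares were 4.21%, 3.62%, 1.65% and 3.97% against 2.65% (exact permutation p = 0.8). Cells with extra-embryonic ectoderm markers, taken as background, held an eGFP UMI in 17 of 535 cells (3.18%) of the late E7.5 control of experiment 4, at a median of 20915 UMIs against 20409 in members.

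An Ai14 UMI, which records past *Mesp1* transcription, was found in 31.1%, 11.98% and 38.3% of members in the 3 late controls that carry the reporter and in 14.01% of late KO members (exact interval 11.99% to 16.2%). The late E7.5 control without the reporter gave 1.504%, and extra-embryonic ectoderm-marked cells of experiment 4 gave 5.42% (29 of 535). The difference of -13.1 points did not pass (exact permutation p = 0.75, with 0.25 the smallest p that 4 embryos allow), and after thinning the shares were 11.2%, 6.20% and 11.9% against 6.52%. Within experiment 5, where depth is alike, the E7.75 control and the late KO embryo held eGFP in 6.45% and 7.14% of members and Ai14 in 11.98% and 14.01%. In early and middle embryos with the reporter Ai14 was seen in 57.2% to 82.1% of control members and in 74.1% and 66.0% of early and middle KO members.

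**Figure D5:**
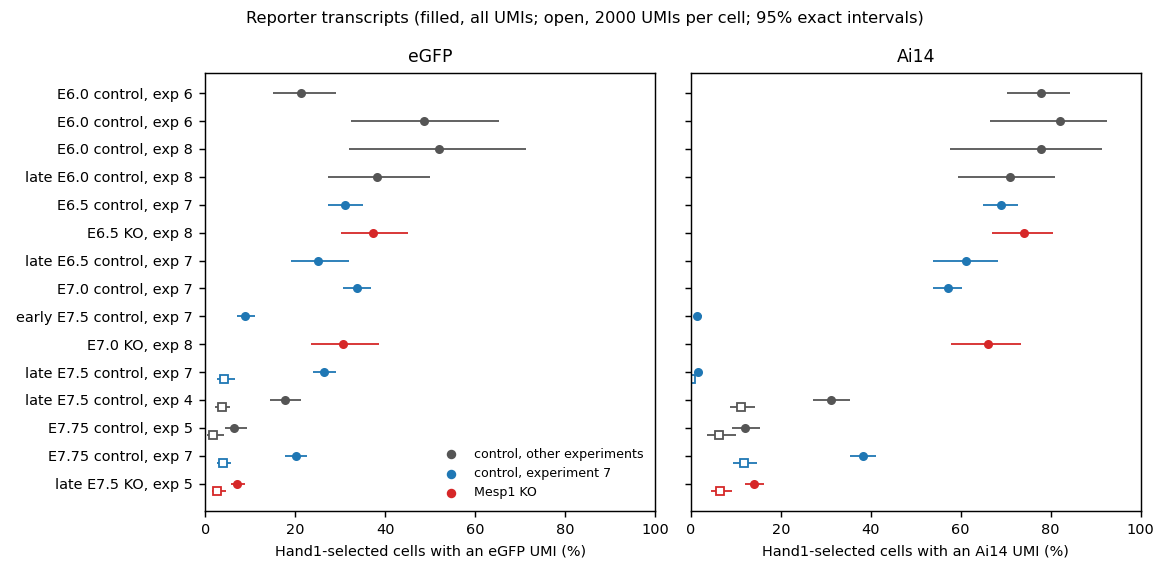
Percentage of *Hand1*-selected cells with an eGFP UMI (left) or an Ai14 UMI (right) in each embryo (rows); filled circles, all UMIs; open squares, late embryos at 2000 UMIs per cell; bars, exact 95% intervals. The late KO embryo (7.14% and 14.01%) lies next to the E7.75 control of experiment 5 (6.45% and 11.98%), and the early E7.5 and late E7.5 controls of experiment 7 carry no Ai14.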

How the data were processed

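Single-cell RNA sequencing from the 5′ ends of transcripts was analysed for 15 whole embryos. Per the labels and the submitters' processing notes, the authors aligned reads to mm10 with the reporter sequences added and counted UMIs with Cell Ranger 3.0.2, and they deposited counts per gene and barcode without normalization. Stage and genotype came from the sample labels, and alleles from the study's methods. Replicates are separate embryos. The members and the 27 gene lists were chosen with earlier results of these data known.

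Counts were summed over members per embryo (at least 10 cells). Genes kept by filterByExpr entered the quasi-likelihood test of edgeR 4.0.16 (limma 3.58.1, R 4.3.3) after TMM scaling, with a mean per stage and genotype, Benjamini-Hochberg over all genes, threshold 0.05. Rule genes were left out of the tests. DESeq2 1.42.0 was an alternative, as were RLE scaling, no filter, experiment as a covariate, thinned cells, other rule settings and each embryo left out. Those on *Foxf1* and on experiments 4, 5 and 7 were added after seeing the data. Scripts used Python 3.11.15, numpy 2.4.6, pandas 2.3.3 and scipy 1.17.1 and were tested on simulated data. Named genes were the list genes and up to 10 per direction past the threshold, at 20 CPM or more and outside the other group's range, filled up by smallest unadjusted p. A count of 0 allows 3 counts, and intervals cover counting error only. Background cells for the reporters held at least 3 of 6 extra-embryonic ectoderm genes and no *Foxf1*, *Msx2* or *Tagln*. No doublet caller was run. Of 238 list genes 237 were in the tables. The authors' own clusters and cell types were not used here.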

Additional observations from a re-analysis of the deposited data

Results flagged for a closer look

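Of 56 comparisons of an embryo with the rest of its control group, rule genes left out, 7 gave an embryo far from the others by Dixon's criterion, which chance does in about 1 in 20 groups. Among late controls, *Asb4* was low in the E7.75 control of experiment 7 at 12.1 CPM, and *Eomes* and *Tdgf1* were high in the late E7.5 control of experiment 7 at 2.89 and 2.36 CPM. *S100a10*, *Has2* and *Vegfa* were high in the E7.75 control of experiment 5 at 1041, 18.9 and 38.4 CPM, the control library nearest to the late KO library in depth and ribosomal content. Among early controls, *Asb4* was low in an E6.0 embryo of experiment 8 at 46.0 CPM.

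Among the genes whose late levels are given embryo by embryo in the text, rule genes left out, 1 had KO embryos on opposite sides of the controls at different stages. *Crabp2* was above every early control in the early KO embryo at 9.62 CPM and below every late control in the late one at 10.4 CPM. Further genes of the lists lay so as well, among them *Wnt5b* and *Tfap2a*, which are named after their values were seen. The early KO embryo is E6.5. Of the early controls only that of experiment 7 is as old, and it held the highest *Crabp2* level among them. The difference between stages was not tested, and each stage has 1 KO embryo.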

How the results depend on the processing

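The 3 calls of late KO against late controls became 66 with DESeq2, 0 with the experiment as a covariate and 0 in a fit of late embryos alone, 1 with late E7.5 controls only and 1 with the controls of experiments 4 and 5 only. Leaving out a late control gave 1 to 462 calls. The 462 (382 higher, 80 lower) came without the E7.75 control of experiment 5, after which the KO embryo is the only late embryo of that experiment, and without the late E7.5 control of experiment 7, the late E7.5 control of experiment 4 or the E7.75 control of experiment 7 there were 9, 1 and 1. RLE scaling gave 3, no filter 4, thinned cells 2 and the other rule settings 2 to 4. *Ndufa4l2* passed in 14 of 16 alternatives, *Asb4* in 7 and *Gmfg* in 9. The 0 calls of late against middle controls became 2 with DESeq2 and 0 to 18 when an embryo was left out (18 without the late E7.5 control of experiment 7, 8 without the early E7.5 control). The share of members, at -1.83 points, became 2.02 without experiment 7, which leaves 2 stages, was -0.802 to -2.41 without 1 late control, -3.05 when a cell was left out only at 3 UMIs of an excluding gene, -2.61 with at least 3 optional genes, -1.07 with *Foxf1* not used and -1.05 in thinned cells. The eGFP difference was -7.57 to -14.2 and the Ai14 difference -7.53 to -20.7 points without 1 late control. In thinned cells the fitted log2 change of *Tmem41a* turned to 0.10, of *Greb1l* to -0.11 and of *Lhfp* to 0.0047. Among the fitted changes of the named genes, 601 of 657 alternative values kept direction and side of the threshold. The causes of these changes were not tested. No paired analysis was possible because the KO groups share 1 replicate number with the control groups, and the fit with the experiment as a covariate is the one that compares within experiments. Depth limits single genes: 3 UMIs are worth 0.801 CPM in late KO members and 1.58 CPM in those of the E7.75 control of experiment 5.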
